A study of Mus musculus with 16 samples.

Results

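The 10 genes described here encode the main steps by which a cell takes up glucose and turns it into lactate: 2 glucose transporters (Slc2a1 and Slc2a3), 2 hexokinases (Hk1 and Hk2), 2 phosphofructokinase subunits (Pfkl and Pfkp), and aldolase A (Aldoa), phosphoglycerate kinase 1 (Pgk1), pyruvate kinase (Pkm) and lactate dehydrogenase A (Ldha). They were taken by name from the 23999 gene symbols of the raw count table, and all 10 were found. The RNA came from mice with acute myeloid leukaemia driven by NPM1cA, the mutant form of nucleophosmin found in human leukaemia, which all samples carried. Bone marrow of 9 mice and myeloid sarcomas (solid tumours of leukaemic cells) of 4 mice came from NPM1cA/SMC3+/- animals, heterozygous for the gene of the cohesin subunit SMC3. The sarcoma of mouse 841 is labelled NPM1cA alone, with wild-type SMC3 per the design text. Tumours of mice 948 and 2721 were sequenced as 2 libraries each, which made 6 SMC3+/- sarcoma libraries and 16 libraries in all.

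The labels limit these groups as models in several ways. The tumours were dissected out and put whole into Trizol, whereas the marrow was crushed, filtered and freed of red cells first, so tissue and handling cannot be told apart. Ages and strains are not given in the labels used here. The sarcoma labelled 1268_1270 may be 1 animal or 2 pooled ones. Mice 1267 and 2721 gave both marrow and sarcoma, and the other mice gave 1 tissue. The labels name separate mice, so the spread below is between animals.

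Glucose enters cells down its gradient through the GLUT proteins, of which GLUT1 (Slc2a1) and GLUT3 (Slc2a3) are the usual carriers of blood cells and GLUT4 (Slc2a4) is the insulin-responsive carrier of fat and muscle. Hexokinase traps glucose as its phosphate, phosphofructokinase commits it to glycolysis, aldolase splits the hexose, phosphoglycerate kinase and pyruvate kinase yield ATP, and lactate dehydrogenase A makes lactate from pyruvate and restores NAD. Neutrophils and their precursors are known for their reliance on glycolysis, and several of these genes are textbook targets of the hypoxia-inducible factor HIF-1 and of MYC.

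The promoters of Slc2a1, Aldoa, Pgk1 and Ldha are shown because Aldoa and Ldha, and Slc2a1 and Pgk1, were the 2 pairs whose levels correlated most over the samples, as given below. The windows cover 250 bases before to 50 bases after the start, 5′ to 3′ on the strand of the gene, from RefSeq with build GRCm38.p6. Capitals mark ACGTG or GCGTG on either strand, the core letters known as the HIF-1 recognition site; a palindromic CACGTG counts once on each strand.
Slc2a1 at chr4:119108495-119108794 on the plus strand: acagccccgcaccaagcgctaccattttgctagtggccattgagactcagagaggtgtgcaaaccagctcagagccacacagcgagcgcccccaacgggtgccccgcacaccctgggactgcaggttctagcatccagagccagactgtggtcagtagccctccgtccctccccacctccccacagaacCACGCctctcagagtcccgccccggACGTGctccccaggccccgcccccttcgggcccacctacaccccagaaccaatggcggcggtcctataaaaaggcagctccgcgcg
Aldoa at chr7:126799205-126799504 on the minus strand: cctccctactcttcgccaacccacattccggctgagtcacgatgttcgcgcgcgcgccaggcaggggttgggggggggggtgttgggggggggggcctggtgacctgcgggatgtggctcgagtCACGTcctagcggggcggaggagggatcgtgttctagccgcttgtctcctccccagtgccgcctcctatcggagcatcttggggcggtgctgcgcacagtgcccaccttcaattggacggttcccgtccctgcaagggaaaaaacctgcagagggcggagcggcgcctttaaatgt
Pgk1 at chrX:106186850-106187149 on the plus strand: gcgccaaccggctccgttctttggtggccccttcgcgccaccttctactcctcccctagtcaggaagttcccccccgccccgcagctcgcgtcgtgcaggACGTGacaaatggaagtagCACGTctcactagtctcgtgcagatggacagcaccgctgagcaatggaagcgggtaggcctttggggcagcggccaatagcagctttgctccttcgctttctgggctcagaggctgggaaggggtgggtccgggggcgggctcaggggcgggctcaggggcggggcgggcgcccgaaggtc
Ldha at chr7:46845554-46845853 on the plus strand: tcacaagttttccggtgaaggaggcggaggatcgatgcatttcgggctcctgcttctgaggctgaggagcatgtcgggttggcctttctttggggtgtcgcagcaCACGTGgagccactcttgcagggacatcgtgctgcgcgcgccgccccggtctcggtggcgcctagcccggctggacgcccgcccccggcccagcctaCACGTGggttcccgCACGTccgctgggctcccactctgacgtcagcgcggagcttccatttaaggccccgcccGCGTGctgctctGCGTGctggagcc
Windows were found for 9 of the 10 genes, with 14 windows because some have several starts; Slc2a3 had no entry. At least 1 of the motifs was present in 11 of these 14 windows, and in at least 1 window of all 9 genes. Among all 32851 mouse windows of the same length, 43.8% held one, so the letters are common and a match is a description only. The share of all genes with a match in at least 1 window was not computed. Of the Aldoa windows, 2 overlap and hold the same match, which is counted in both. The Ldha window shown held 5 matches to ACGTG, counting both strands, and 2 to GCGTG, and the Pgk1 window held 2 to ACGTG and none to GCGTG.

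Library depth ran from 9797201 counts in the sarcoma of mouse 841 to 39197660 in marrow 919. Levels are CPM, the counts per 1000000 of the library total, with totals scaled by the trimmed mean of M-values (TMM), and libraries from the same tissue of 1 mouse were added up, leaving 14 samples. A few libraries stood apart before any comparison: marrows 737, 779 and 782 and tumour 1 of mouse 948 had too few counts in long transcripts, with a median log2 deviation of transcripts over 6 kb of -2.29, -2.36, -2.13 and -1.23, against -0.94 to 0.63 in the other libraries. The leukocyte RNA content of the samples was checked with marker genes, which do not separate leukaemic from normal leukocytes. The summed level of 10 pan-leukocyte markers was 6430 to 12400 CPM in marrow, 9750 in sarcoma 948, 7100 in 2721, 5940 in 841, 4910 in 1267 and 640 in 1268_1270. Sarcoma 1268_1270 thus had little leukocyte RNA, and its 10 adipocyte markers summed to 68600 CPM, against 126 to 711 in the other sarcomas and 32.8 to 64.9 in marrow. Its 10 neutrophil markers summed to 909 CPM, against 23000 to 86600 in the other sarcomas.

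**Figure D1:**
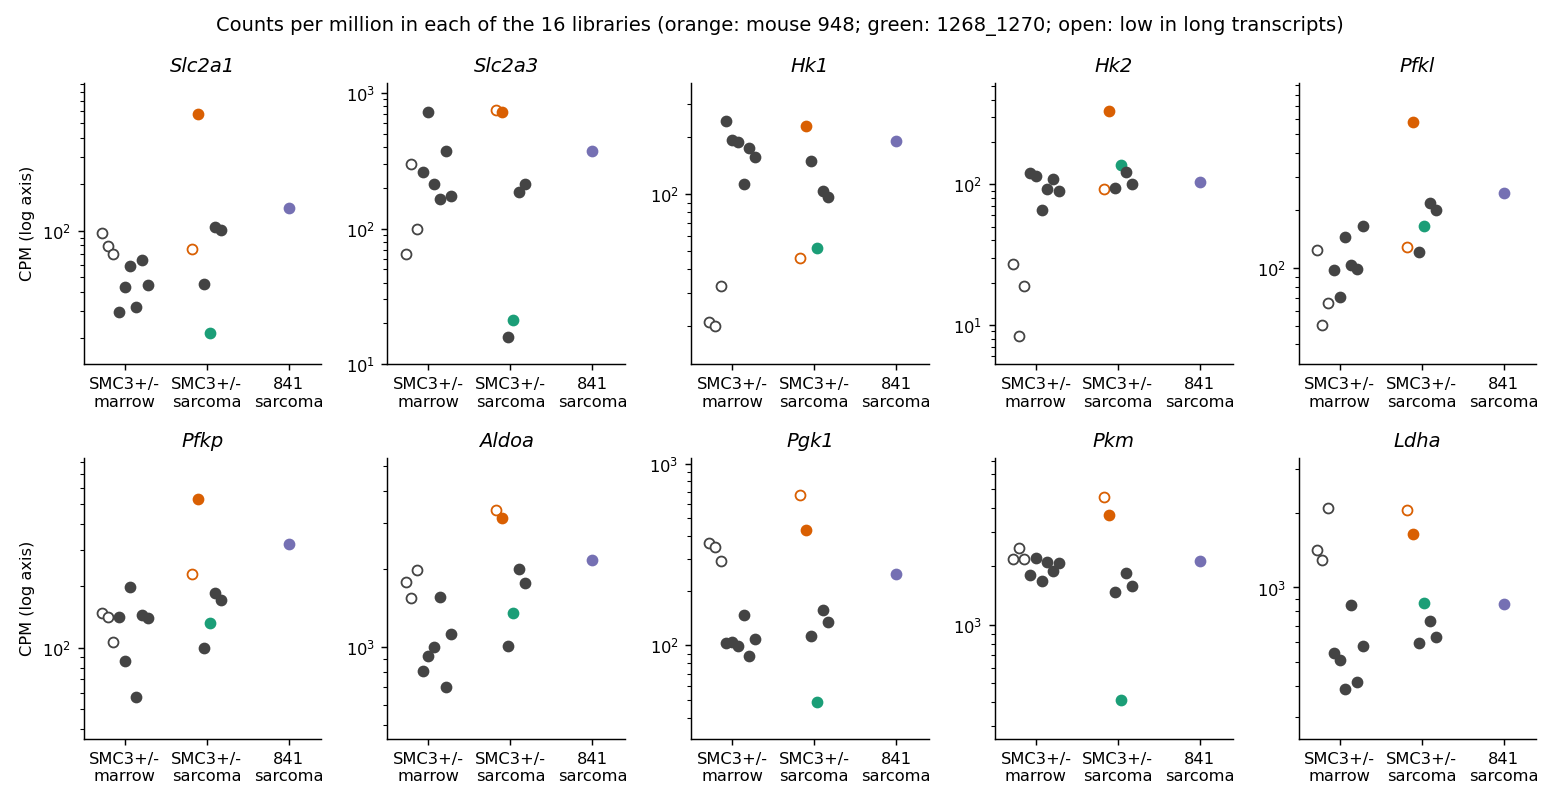
Level of each gene in CPM on a log axis, 1 point per library, for the SMC3+/- marrows, the SMC3+/- sarcomas and the sarcoma of mouse 841; orange marks the tumours of mouse 948, green sarcoma 1268_1270, and open circles the libraries low in long transcripts. The points of mouse 948 include the highest sarcoma library for all 10 genes, and 1268_1270 lies lowest of the sarcomas for Slc2a1, Pgk1 and Pkm.

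No gene of the 10 passed the test between sarcoma and marrow. By edgeR's quasi-likelihood test over all genes (adjusted p under 0.05), 0 were higher and 0 lower. The background was 4.49% of 14730 tested genes called higher and 0.0543% called lower. The median log2 fold change of the 10 genes was 0.26, with 7 of 10 above 0, against 0.07 over all tested genes. An unadjusted edgeR p under 0.05 was found for 1 of the 10, and for 2031 of the 14730 tested genes. DESeq2 and limma-voom called 0 as well. None of the 10 had all sarcomas above all marrows, which held for 4.68% of tested genes, or all below, which held for 0.115%. With the mouse as a block the median of the 10 was -0.13, with 4 above 0 and again 0 called. That of all genes was 0.22, with 107 genes called higher and 23 lower. Mice with 1 tissue add nothing to the fold changes of this block fit, which rest on mice 1267 and 2721. Scaled to pan-leukocyte genes instead, Slc2a1, Hk2, Pfkl, Pfkp and Aldoa were called higher, but 6523 of all genes were too; the median of all genes then was 1.86 and that of the 10 was 1.59. In bulk RNA, fewer cells of a type and less RNA per cell cannot be told apart.

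The sarcomas differed widely from each other. Sarcoma 948 was the highest of the 4 for 9 of the 10 genes, all but Hk1, and exceeded every marrow for 8, as it did for 16.2% of all tested genes. The 10 genes together made up 1.19% of its scaled counts, against 0.535% in sarcoma 2721, 0.372% in 1267, 0.32% in 1268_1270, 0.678% in 841 and 0.405 to 0.695% in the marrows. Sarcoma 1268_1270 was below every marrow for 4 genes (15.8% of all tested genes were) and above every marrow for Hk2. Sarcoma 1267 was below every marrow for Slc2a3 and Pkm, and 2721 was above every marrow for Slc2a1 and Pfkl. Shares over all tested genes were not computed for sarcomas 1267 and 2721, nor for 1268_1270 above every marrow. Nor was the share for which 948 was the highest of the 4 sarcomas. Leaving out sarcoma 948 turned the median log2 fold change of the 10 genes to -0.18, with 4 above 0. That of all genes was 0.20. Leaving out 1268_1270 instead gave 0.47, with 9 above 0, against 0.04 for all genes. Without the 4 libraries low in long transcripts the median of the 10 was 0.71, against 0.04 for all genes, again with 0 called. Without these and 1268_1270 it was 0.84, with 8 above 0, against 0.02 for all genes.

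Among the transporters, Slc2a1, which encodes the widely used carrier GLUT1, had 292 CPM in sarcoma 948, 44.7 in 1267, 21.5 in 1268_1270 and 103 in 2721. The 9 marrows ran from 29.3 CPM in marrow 919 to 96.8 in marrow 737, with a median of 58.8. Sarcomas 948 and 2721 were above the whole marrow range and 1268_1270 below it, so the groups overlapped. The log2 fold change was 0.84 ± 0.52 (SE, edgeR adjusted p = 0.587; mean 116 ± 123 CPM, SD, n = 4, against 57.6 ± 22.6, n = 9). It was -0.03 without sarcoma 948, 0.06 with the first tumour of each mouse only and 1.98 without the libraries low in long transcripts, so the value rests on mouse 948 and on which libraries enter.

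Slc2a3, the gene of the high-affinity carrier GLUT3, varied most among the sarcomas, by 46.5-fold. It had 741 CPM in sarcoma 948, 15.9 in 1267, 21.0 in 1268_1270 and 201 in 2721, against 64.6 in marrow 737 to 731 in marrow 949, with a marrow median of 213. Sarcomas 1267 and 1268_1270 lay below all 9 marrows and 948 just above them. The low level was shared by 1 tumour with 4910 CPM of leukocyte markers and 1 with 640, and the part of cell composition in it was not tested. Sarcoma over marrow gave a log2 fold change of -0.28 ± 0.84 (SE, edgeR adjusted p = 0.977), and it changed sign when marrow 949, sarcoma 1267 or sarcoma 1268_1270 was left out (0.17, 0.11 and 0.10). It was lower under others: -1.73 without sarcoma 948, -1.44 by limma-voom, and -2.41 when mice were fitted as blocks. It was -2.37 in the block fit of the 2 mice with both tissues. The edgeR or limma adjusted p of these ran from 0.249 to 0.464. Both block fits take the fold change from mice 1267 and 2721 only.

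The log2 ratio of Slc2a3 to Slc2a1 counts gave a view that does not depend on library scaling. It was 1.34 in sarcoma 948, -1.49 in 1267, -0.04 in 1268_1270 and 0.96 in 2721, and in marrow it ran from -0.58 to 4.08 with a median of 1.97. All 4 sarcomas were below the marrow median. The mean difference was -1.79 (0.19 ± 1.26, SD, n = 4, against 1.98 ± 1.37, n = 9; exact two-sided permutation p = 0.0503, 0.201 after Benjamini-Hochberg adjustment over the 8 ratios computed). Slc2a4, the GLUT4 gene and no member of the 10, had 215 CPM in sarcoma 1268_1270, 9.21 in 948, 1.28 in 2721 and 0.0287 in 1267, against 0 to 3.65 in marrow. Its log2 fold change was 6.23 ± 1.80 (SE, edgeR adjusted p = 0.0692). Its log2 ratio to Slc2a1 was 3.32 in sarcoma 1268_1270 and between -11.78 and -4.01 in marrow. That tumour alone had more Slc2a4 than Slc2a1 counts, beside the adipocyte marker level given above.

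Hk1, the hexokinase bound to mitochondria in most tissues, had 126 CPM in sarcoma 948, 149 in 1267, 51.8 in 1268_1270 and 100 in 2721. The marrows ran from 20 CPM in marrow 779 to 243 in marrow 919, with a median of 157. All 4 sarcomas were below the marrow median but inside the marrow range, which 3 marrows low in long transcripts widened. For Hk1 the log2 fold change was -0.39 ± 0.63 (SE, edgeR adjusted p = 0.941).

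Hk2, the inducible hexokinase of muscle, fat and many tumours, had 195 CPM in sarcoma 948, 94.8 in 1267, 138 in 1268_1270 and 112 in 2721. The marrow values ran from 8.38 in marrow 779 to 121 in marrow 919, with a median of 89.5. All 4 sarcomas were above the marrow median, and 948 and 1268_1270 were above every marrow. The 3 marrows low in long transcripts, at 8.38 to 27.2 CPM against 65.8 to 121 in the other 6, lowered that median. The log2 fold change was 0.79 ± 0.56 (SE, edgeR adjusted p = 0.674), and -0.23 with the mouse as a block.

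The log2 ratio of Hk2 to Hk1 was 0.64 in sarcoma 948, -0.66 in 1267, 1.41 in 1268_1270 and 0.16 in 2721, against -1.51 to 0.37 in marrow with a median of -0.78. Sarcomas 948 and 1268_1270 exceeded all marrows in this ratio, and 1267 was above the marrow median. The mean difference was 1.14 (0.39 ± 0.87, SD, n = 4, against -0.75 ± 0.54, n = 9; exact two-sided permutation p = 0.028, adjusted 0.201, where the smallest p that 4 against 9 allows is 0.0028). Among the alternatives run, ratios passed the threshold only without marrow 737: those of Hk2 to Hk1 (1.28) and of Slc2a3 to Slc2a1 (-2.11), each with an exact permutation p adjusted to 0.0485. Over all alternatives the adjusted p of the Hk2 ratio ran from 0.0485 to 0.345. Hk3, the hexokinase gene abundant in granulocytes, had 23.5 CPM in sarcoma 1268_1270, 487 to 677 in the other 3 and 332 to 745 in marrow.

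Pfkl, the liver-type phosphofructokinase subunit, had the smallest p of the 10 genes. It had 326 CPM in sarcoma 948, 121 in 1267, 165 in 1268_1270 and 210 in 2721. Its marrow levels ran from 50.3 in marrow 779 to 166 in marrow 3332, with a median of 98.5. All 4 sarcomas were above the marrow median, and 948 and 2721 were above every marrow. Pfkl thus had a log2 fold change of 0.87 ± 0.34 (SE, unadjusted p = 0.0222, edgeR adjusted p = 0.222; mean 205 ± 88.1 CPM, SD, n = 4, against 103 ± 37.9, n = 9). Pfkp, the platelet-type subunit, had 357 CPM in sarcoma 948, 99.4 in 1267, 132 in 1268_1270 and 178 in 2721, against 57.2 in marrow 1267 to 197 in marrow 1103 with a median of 141. Only 948 left the marrow range, and the log2 fold change was 0.45 ± 0.36 (SE, edgeR adjusted p = 0.74). The log2 ratio of Pfkp to Pfkl lay between -0.32 and 0.13 in the 4 sarcomas and between -0.86 and 1.48 in marrow, a difference of -0.52 (n = 4 against n = 9, exact permutation p = 0.151, adjusted 0.302). The muscle-type subunit gene Pfkm was less counted than both, with 19.1 to 49.8 CPM in the sarcomas and 5.95 to 26.3 in marrow.

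Aldoa, which encodes the aldolase of muscle and most other tissues, had 3280 CPM in sarcoma 948, 1010 in 1267, 1350 in 1268_1270 and 1900 in 2721. Its marrow levels ran from 704 in marrow 2721 to 1990 in marrow 782, with a median of 1120. Only 948 left the marrow range, and the log2 fold change was 0.43 ± 0.40 (SE, edgeR adjusted p = 0.803). Without the 3 marrows low in long transcripts, the Aldoa range in the other 6 was 704 to 1560 CPM. Sarcoma 2721 was above that range too. Pgk1, whose enzyme makes the first ATP of the pathway, had 568 CPM in sarcoma 948, 113 in 1267, 48.6 in 1268_1270 and 145 in 2721, against 87.5 in marrow 2721 to 368 in marrow 737 with a median of 108. Here 948 was above and 1268_1270 below all marrows. The log2 fold change was 0.09 ± 0.59 (SE, edgeR adjusted p = 0.994), and -0.86 without sarcoma 948.

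Pkm, which encodes pyruvate kinase of all tissues but liver and red cells, was the steadiest of the 10 in marrow, from 1690 CPM in marrow 1103 to 2500 in marrow 779 with a median of 2110. It had 4170 CPM in sarcoma 948, 1470 in 1267, 410 in 1268_1270 and 1720 in 2721. The marrows spanned 1.48-fold and the sarcomas 10.2-fold, with 948 above every marrow and 1267 and 1268_1270 below every marrow. Its log2 fold change was -0.26 ± 0.44 (SE, edgeR adjusted p = 0.945), and 0.08 without sarcoma 1268_1270. Counts per gene do not separate the M1 and M2 splice forms of Pkm.

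Ldha, the gene of the lactate dehydrogenase subunit that favours lactate production, had 1880 CPM in sarcoma 948, 597 in 1267, 869 in 1268_1270 and 681 in 2721. The marrows ran from 390 in marrow 1103 to 2090 in marrow 782, with a median of 579. All 4 sarcomas were above the marrow median and inside the marrow range. The upper part of that range came from the 3 marrows low in long transcripts. In the other 6 marrows Ldha was 390 to 853 CPM, and sarcomas 948 and 1268_1270 were above these. The log2 fold change was 0.03 ± 0.51 (SE, edgeR adjusted p = 0.997). Ldhb, which encodes the heart-type subunit, had 77.9 CPM in sarcoma 1268_1270, 12 in 948, 2.44 in 1267 and 2.15 in 2721, against 1.52 to 97.9 in marrow. Of the remaining ratios, those of Hk3 to Hk1, Pfkm to Pfkl, Aldoc to Aldoa, Ldhb to Ldha and Slc2a4 to Slc2a1 had adjusted exact permutation p of 0.302 to 0.708. Reads of copies such as Aldoart1 (at most 1.91 CPM) may be shared with their parent genes.

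**Figure D2:**
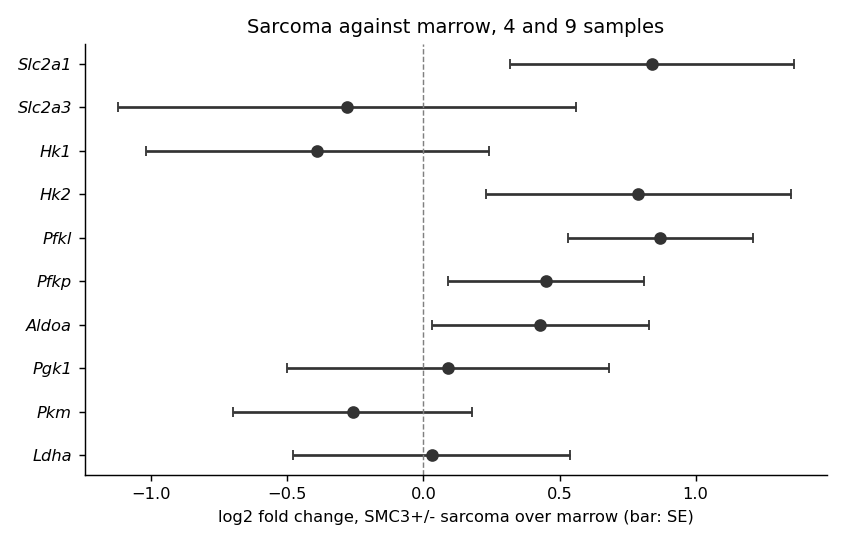
Log2 fold change of each gene between the 4 SMC3+/- sarcomas and the 9 SMC3+/- marrows on the x axis, with bars of 1 SE from edgeR. The points run from -0.39 for Hk1 to 0.87 for Pfkl, and no gene passed the adjusted threshold.

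The 2 mice that gave both tissues showed the same direction for 6 of the 10 genes. The share of all genes was not computed. Hk2 is among the 6, with log2 differences of only 0.03 in mouse 1267 and 0.04 in mouse 2721. Slc2a3 was lower in the sarcoma in both, with 166 CPM in marrow and 15.9 in sarcoma of mouse 1267, and 377 and 201 in mouse 2721. Slc2a1 was higher in both sarcomas, at 32.0 in marrow and 44.7 in sarcoma of mouse 1267, and 64.1 and 103 in mouse 2721. Aldoa went opposite ways: 1560 CPM in marrow and 1010 in sarcoma of mouse 1267, and 704 and 1900 in mouse 2721. Marrow 1267 had a median log2 deviation of transcripts over 6 kb of -0.94, just above the cut of -1. Its sarcoma had -0.03 and marrow 2721 had 0.63. The part of transcript length in these pairs was not tested. In an edgeR fit of these 2 mice with the mouse as a block, Slc2a3 had a log2 fold change of -2.37 (adjusted p = 0.249) and Slc2a1 of 0.36 (0.999), and 0 of the 10 genes were called.

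The 2 tumours of mouse 2721 were alike in the levels of the 10 genes, and those of mouse 948 less so. Across the 10 genes the median absolute log2 difference between tumours was 0.20 in mouse 2721 and 0.93 in mouse 948, against 0.13 and 1.05 over the 8953 genes whose log2 CPM averaged 3 or more. The median gap in mouse 948 was thus close to that of the other genes. Slc2a1 was 76.1 CPM in tumour 1 and 574 in tumour 2 of mouse 948, 7.54-fold apart. Hk1 was 45.7 and 230 CPM, Hk2 92.3 and 330, Pfkl 129 and 581, and Pfkp 227 and 526. These 5 genes were higher in tumour 2, which had the highest level of all 16 libraries for Slc2a1, Hk2, Pfkl and Pfkp.

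The other 5 genes were close between the 2 tumours of mouse 948, or somewhat higher in tumour 1. Slc2a3 was 748 CPM in tumour 1 and 731 in tumour 2, Aldoa 3370 and 3160, Pgk1 676 and 429, Pkm 4550 and 3670, and Ldha 2050 and 1650. Tumour 1 had the highest level of the 16 libraries for 4 genes. The share of all genes was not computed for either tumour. Tumour 1 was the library low in long transcripts, and its markers also differed. Skeletal muscle markers summed to 3960 CPM in tumour 1 and 22.8 in tumour 2, and neutrophil markers to 137000 and 21700. In mouse 2721, skeletal muscle markers summed to 32.7 CPM in tumour 1 and 619 in tumour 2. Macrophage markers there were 1140 and 603 CPM, and neutrophil markers 62000 and 62800. The part of the markers and of transcript length in the levels was not tested.

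**Figure D3:**
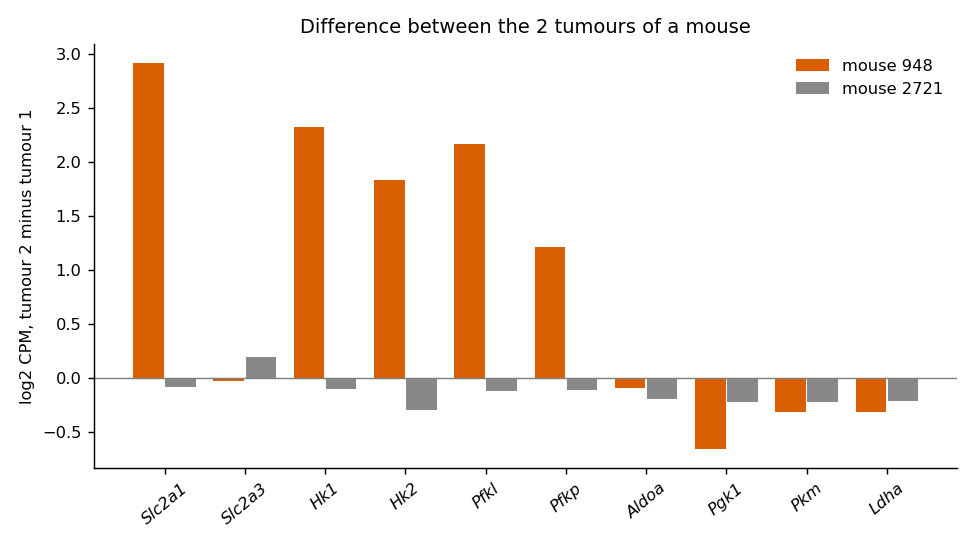
Difference in log2 CPM between tumour 2 and tumour 1 of the same mouse for each gene, with orange bars for mouse 948 and grey bars for mouse 2721. Orange bars reach 2.91 for Slc2a1 and grey bars stay between -0.29 and 0.20.

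Among the marrows, the 3 that were low in long transcripts did not overlap the other 6 for 5 of the 10 genes. The share of all genes without such overlap was not computed, so this count has no background beside it. In marrows 737, 779 and 782 Hk1 was 20 to 32.4 CPM, against 113 to 243 in the other 6, and Hk2 was 8.38 to 27.2 against 65.8 to 121. Pgk1 was 292 to 368 CPM in the 3, against 87.5 to 147, and Ldha was 1290 to 2090 against 390 to 853. Slc2a1 was also higher in the 3, at 70.1 to 96.8 CPM against 29.3 to 64.1, and the other 5 genes overlapped. The longest coding transcripts of Pgk1 and Ldha are 1825 and 1815 bases, and those of Hk1 and Hk2 are 4278 and 5513 bases, in the GENCODE M21 annotation. Length did not order all genes: Pfkp, at 4145 bases, differed by 0.13 in mean log2 CPM and Slc2a1, at 3260 bases, by 0.90, against -2.84 for Hk1. Over the genes measured, the median log2 difference between the 3 marrows and the other 6 was 0.94 for transcripts under 2 kb, 0.09 for 2 to 4 kb, -0.85 for 4 to 6 kb and -2.28 over 6 kb. The 3 marrows were picked by their level of long transcripts, so the difference is a description, with no test.

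**Figure D4:**
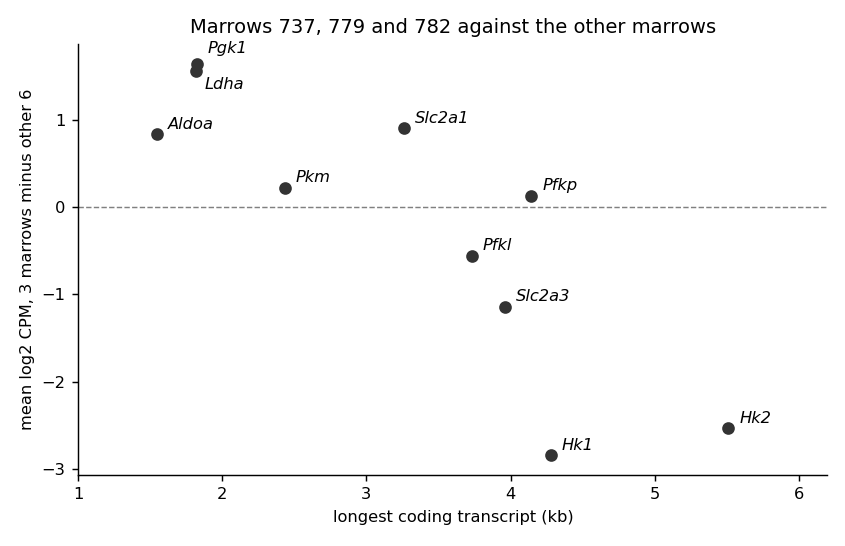
Mean log2 CPM of marrows 737, 779 and 782 minus that of the other 6 marrows on the y axis, against the length of the longest coding transcript in kb on the x axis, 1 point per gene. The difference runs from 1.64 for Pgk1 to -2.84 for Hk1.

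Per kilobase of the longest coding transcript, Pkm, Aldoa and Ldha were the 3 most abundant of the 10 genes in all 14 samples. Their marrow medians were 866, 725 and 319 CPM per kb, and their marrow ranges overlapped (697 to 1030, 454 to 1290 and 215 to 1150). The marrow medians of the rest were 59.4 CPM per kb for Pgk1, 53.8 for Slc2a3, 36.7 for Hk1, 33.9 for Pfkp, 26.4 for Pfkl, 18.0 for Slc2a1 and 16.2 for Hk2, where each range overlapped that of the next gene. In sarcoma 1268_1270 the order of the top genes was Aldoa at 868 CPM per kb, Ldha at 479 and Pkm at 169. In sarcoma 948 it was Aldoa at 2110 CPM per kb, Pkm at 1710 and Ldha at 1040. Hexokinase RNA in marrow was mostly Hk3 on this scale, with a median of 158 CPM per kb, against 7.31 in sarcoma 1268_1270.

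Across the 14 samples, levels of Aldoa and Ldha ran most nearly together (Pearson r of log2 CPM 0.83, Spearman rho 0.83), followed by Slc2a1 and Pgk1 (0.81 and 0.71), Pgk1 and Ldha (0.79 and 0.77), Hk1 and Hk2 (0.79 and 0.45) and Aldoa and Pgk1 (0.77 and 0.79). Slc2a1 and Ldha were less alike (0.49 and 0.45). Hk1 ran against Ldha (r = -0.72, rho = -0.75). These samples share the length pattern just described, and the correlations are given as a description. Of the 8953 genes compared, the most like Hk1 were Cenpe, Ctcf and Dyrk1a (r = 0.974, 0.973 and 0.972). The most like Hk2 were Eea1, Rest and Pbrm1 (0.962, 0.952 and 0.952). Spearman rho was 0.881, 0.908 and 0.908 for Hk1, and for Hk2 0.903, 0.473 and 0.692. The most like Pgk1 were Rpl10, Vamp8 and Rpl7 (0.937, 0.931 and 0.93), and the most like Ldha were Psmd6, Cops5 and Rars (0.958, 0.944 and 0.937).

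For Slc2a3 the most similar genes were Plaur, Tmem154 and Il2rg (0.912, 0.912 and 0.901). For Pkm they were Samsn1, Alox5ap and Sla (0.942, 0.93 and 0.926), and for Slc2a1 Asnsd1, Cytip and Eno1b (0.906, 0.859 and 0.834). Spearman rho was 0.574, 0.868 and 0.679 for Pkm, and for Slc2a1 0.877, 0.908 and 0.662. Eno1b is close in sequence to the enolase gene Eno1, and their reads may have been split or shared. Their lowest and highest levels were nearly the same, at 357 and 1600 CPM for Eno1b and 356 and 1600 for Eno1. Aldoa was most like Hint3, Mpp1 and Nudt2 (0.888, 0.869 and 0.863). Pfkl was most like Acsl4, Ube3a and Pfkm (0.84, 0.83 and 0.82), and Pfkp most like Thy1, Slc39a4 and Acsl3 (0.871, 0.833 and 0.833). Spearman rho ran from 0.741 to 0.969 for the most similar genes of Pgk1, Ldha, Slc2a3, Aldoa, Pfkl and Pfkp.

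The sarcoma of mouse 841, the sample with wild-type SMC3, had 140 CPM of Slc2a1, 374 of Slc2a3, 191 of Hk1, 104 of Hk2 and 248 of Pfkl. It had 318 CPM of Pfkp, 2160 of Aldoa, 247 of Pgk1, 2140 of Pkm and 857 of Ldha. For 9 genes this was inside the range of the 4 SMC3+/- sarcomas, and Hk1 was above it. For 7 of the 10 genes it was the second highest of the 5 sarcoma samples. Shares of all genes were not computed for either count. Slc2a1, Pfkl, Pfkp and Aldoa, 4 of the 10, were above every SMC3+/- marrow, which held for 14.4% of 14730 genes. Against the 4 SMC3+/- sarcomas, edgeR called 0 of the 10 genes and 0 (0%) of 17762 tested, with 236 genes at an unadjusted p under 0.05; DESeq2 called 0 of the 10, with 8 genes higher and 57 lower over the table. With 1 sample in the group the test takes its spread from the others.

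The largest log2 differences of mouse 841 were 0.84 ± 0.68 for Hk1, 0.74 ± 0.82 for Pfkp and 0.64 ± 1.89 for Slc2a3 (SE, edgeR adjusted p = 1 for each). Without sarcoma 948, Slc2a3 was 2.32, Slc2a1 1.41 (0.30 with it), Pgk1 1.39 (0.20 with it), Pfkp 1.34 and Hk1 1.05. The order and size of these values thus rest on that mouse. The SE of Pkm was 1.39 around 0.16, so that differences of this size could not be detected here. Genotype and mouse cannot be told apart with 1 animal.

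The rest of the pathway held few called genes. Of 14 tested other glycolytic enzymes 0 were called, with a median log2 fold change of 0.27. An unadjusted edgeR p under 0.05 was found for 4 of them, and for 2031 of all 14730 tested genes. Among these 4 were Pfkm (1.26 ± 0.43, SE, edgeR adjusted p = 0.134) and the neuronal enolase gene Eno2 (4.18 ± 1.31, adjusted p = 0.0996), which was chosen after its values were seen. Eno2 was 0.682 to 4.38 CPM in the 4 sarcomas and at most 0.55 in marrow, so the groups did not overlap. Gpi1, which interconverts the hexose phosphates, had 2610 CPM in sarcoma 948, 2350 in 1267, 292 in 1268_1270 and 2400 in 2721, against 1200 to 3360 in marrow. Eno1, the ubiquitous enolase, had 1600, 517, 356 and 610 CPM in the same order, against 492 to 796. Gpi1 and Eno1 were both lowest in 1268_1270. The Eno1 level cannot be told apart from that of Eno1b, as given above. Of 7 tested pentose phosphate enzymes 0 were called, with a median of -0.36; Tkt and Taldo1, the most abundant, had log2 fold changes of -0.49 and -0.67 (edgeR adjusted p = 0.73 and 0.635). Of 6 tested other hexose transporters 0 were called, with a median of -0.08, and the most abundant were Slc2a6 (-1.51) and Slc2a9 (-0.54).

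One gene rose in each of the other 3 lists, and each of these calls was lost without sarcoma 1268_1270. Among 13 carriers and gates of lactate and pyruvate, with a median of 0.33, Pdk4, a kinase that shuts pyruvate dehydrogenase, was called. It had 138 CPM in sarcoma 1268_1270, 17.5 in 948, 5.84 in 2721 and 1.75 in 1267, against at most 0.45 in marrow, so the groups did not overlap. The log2 fold change was 8.40 ± 1.35 (SE, edgeR adjusted p = 0.0025), and 5.94 (adjusted p = 0.0679) without that tumour. With the mouse as a block it was 9.66 (edgeR adjusted p = 0.0442). Slc16a3, the lactate exporter MCT4, had 412 CPM in sarcoma 948, 145 in 1267, 13.5 in 1268_1270 and 374 in 2721, against 108 to 305 in marrow. Its chaperone Bsg had 561, 292, 467 and 254 CPM, against 117 to 404.

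Among 9 tested regulators, with a median of 0.69, Pfkfb1, the liver and muscle form of the enzyme that sets fructose 2,6-bisphosphate, was called with a log2 fold change of 3.12 ± 0.76 (SE, edgeR adjusted p = 0.0282). It had 67.5 CPM in sarcoma 1268_1270, 10.6 in 2721, 3.38 in 1267 and 3.21 in 948, against 0.618 to 5.32 in marrow, with 948 and 1267 inside the marrow range. Without 1268_1270 the value was 1.12 (adjusted p = 1), and without marrow 779 it was 3.08 (0.0517). With the mouse as a block it was 1.91 (0.989), and without the libraries low in long transcripts 2.85 (0.143). Pfkfb3, its inducible relative, had 1110 CPM in 1268_1270 and 86.5 to 172 in the others, against 28.0 to 165 (log2 fold change 2.19, edgeR adjusted p = 0.065). Txnip, an inhibitor of glucose uptake, had 1630 CPM in 1268_1270, 887 in 948, 268 in 1267 and 603 in 2721, against 111 to 644.

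Among 12 tested enzymes of gluconeogenesis and glycogen, with a median of 0.07, Pck1, which makes phosphoenolpyruvate in liver and fat, had 2410 CPM in sarcoma 1268_1270, 8.26 in 948, 6.52 in 2721 and 0 in 1267, against at most 0.698 in marrow. The groups overlapped through 1267. Its log2 fold change was 12.48 ± 2.18 (SE, edgeR adjusted p = 0.00423), and 5.49 (adjusted p = 0.296) without 1268_1270. With the mouse as a block it was 9.57 (edgeR adjusted p = 0.0195). Pygl, the most abundant of the list, had 1560, 547, 216 and 1140 CPM in sarcomas 948, 1267, 1268_1270 and 2721, against 253 to 1370 in marrow. In sarcoma 1268_1270, then, Slc2a4, Pfkfb3, Pdk4 and Pck1 stood at their highest of the 14 samples while Slc2a1, Slc2a3, Pgk1 and Pkm stood below every marrow, beside the adipocyte and leukocyte marker levels given above; the part of cell composition was not tested.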

How the data were processed

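PolyA RNA of the 16 libraries was sequenced by the authors, who deposited raw counts per gene; STAR, DESeq, DESeq2 and build mm9 are named in the submitters' processing notes. No spike-in rows were in the table. The 10 genes, the pathway and marker lists and the tests were chosen with earlier results of these data known. Libraries of 1 mouse and tissue were summed. Genes passing filterByExpr were fitted with edgeR 4.0.16 (quasi-likelihood, TMM scaling, R 4.3.3), sarcoma against marrow over 13 samples and mouse 841 against 4 sarcomas, with Benjamini-Hochberg adjustment over all tested genes at 0.05; SEs were derived from the fold change and F. The fitting was tested on simulated data. DESeq2 1.42.0 and limma 3.58.1 (voom), other scalings, units and filters, a mouse block and left-out samples were alternatives.

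Mice 1267 and 2721 gave both tissues, so the labels pair these samples; deviations from the tissue mean correlated at 0.38 and 0.32 over 8953 genes. Ratios used log2 of counts plus 0.5 and exact two-sided permutation tests (scipy 1.17.1). For correlations and pairs 0.5 was added to CPM. Transcript lengths came from GENCODE M21 and promoters from RefSeq, neither in build mm9, so no coordinate was joined to the counts. Genes named were the 10, the partners in the 8 ratios, the called genes of each pathway list (or, with fewer than 2 called, also its 2 most abundant), and the 3 genes most correlated with each of the 10 among genes averaging a log2 CPM of 3 or more. Depth ran from 9797201 to 39197660 counts.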

Additional observations from a re-analysis of the deposited data

How the results depend on the processing

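Across all alternatives for sarcoma against marrow 0 of the 10 genes were called in either direction, except that scaling to pan-leukocyte genes called 5 higher: Slc2a1 (1.44), Hk2 (2.82), Pfkl (2.59), Pfkp (1.98) and Aldoa (2.01), with the median of all genes moved to 1.86 and that of the 10 at 1.59; this scaling also turned Slc2a3 to 0.11, Hk1 to 1.01 and Pkm to 0.51. Signs also changed elsewhere: Pgk1 was -0.26 by limma-voom and -0.02 with upper quartile scaling, where Ldha was -0.08. With each tumour library as a sample, Slc2a3 was 0.25 and Pkm 0.09. With the mouse as a replicate block Hk2, Pgk1 and Ldha were -0.23 (from 0.79), -0.09 and -0.17 and Slc2a3 -2.41 (from -0.28), and in mice 1267 and 2721 alone -0.19, -0.05, -0.13 and -2.37; the block changed no call of the 10 genes. Fold changes of both block fits rest on mice 1267 and 2721. The block ended the call of Pfkfb1 (1.91, edgeR adjusted p = 0.989), and in the 2 mice alone that of Pdk4 (9.82, adjusted p = 0.962). With all mice in the block fit the calls of Pdk4 and Pck1 stayed. Pfkfb1 and Pck1 were also not called by limma-voom (adjusted p = 0.323 and 0.24). The alternatives for Pdk4, Pfkfb1 and Pck1 were chosen after seeing the data. When sarcoma 1268_1270 and the libraries low in long transcripts were left out, Pkm was 0.13. Leaving out 1 sample at a time gave Slc2a3 -1.73 to 0.17, Slc2a1 -0.03 to 1.18, Pgk1 -0.86 to 0.41, Ldha -0.33 to 0.30 and Pkm -0.79 to 0.08.

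For mouse 841 all alternatives called 0 of the 10 genes. Ldha was 0.09 with library totals. With pan-leukocyte scaling Hk1 was -0.20, Pfkl -1.13, Pfkp -0.51, Aldoa -1.08, Pgk1 -0.20 and Pkm -0.26, where the median of all genes was -1.91. Leaving out 1 sarcoma gave Slc2a3 0.25 to 2.32, Slc2a1 0.03 to 1.41, Pfkp 0.53 to 1.34, Ldha -0.40 to 0.39, Pgk1 -0.01 to 1.39 and Pkm -0.03 to 0.95.

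The 8 ratios gave 0 calls, except 2 without marrow 737 (0 to 2 when 1 sample was left out). Without the libraries low in long transcripts the difference of Pfkm to Pfkl was -0.23; leaving out 1268_1270 too, it was -0.75, that of Slc2a4 to Slc2a1 -2.18 and of Hk3 to Hk1 0.05. Leaving out 1 sample gave Ldhb to Ldha -1.52 to 0.09. The causes were not tested. Depth set no limit on the 10 genes, all with CPM above 8 in every sample.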
